A study of Mus musculus with 6 samples.

Results

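The genes described here are the VEGF family of secreted growth factors and its receptors as measured by RNA-seq in control and senescent mouse adult fibroblasts (MAFs). The family was chosen by gene name, as 4 ligands (*Vegfa*, *Vegfb*, *Vegfc*, *Pgf*), 3 receptor tyrosine kinases (*Flt1*, *Kdr*, *Flt4*) and 2 neuropilins (*Nrp1*, *Nrp2*), 9 of the 43346 genes counted. Because it was put together with the control and senescent values of these libraries already known, the difference between the groups in these 9 genes is given as a description. It is given with its error and without a p-value for any single gene. Counts of these genes that pass a limit on p are likewise descriptions and no test of the family. All 9 passed the filter on low counts that left 17589 genes for testing.

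MAFs are primary ear fibroblasts of adult female C57BL6/J mice, and all 6 libraries come from such cells cultured at 3% oxygen. The 3 senescent samples were exposed to X-rays (20 Gy) and kept for 21 days, and the 3 control samples were sham irradiated. Both groups were treated with 100 nM dexamethasone, which synchronizes circadian clocks, for 2 hours and were collected 12 hours later. Nothing in the labels ties a sample to a separate animal or culture, so the spread between replicates may be technical in part.

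VEGF ligands act on neighbouring cells, above all on endothelium. VEGF-A signals through KDR (VEGFR2), the main receptor for blood vessel growth, and binds FLT1 (VEGFR1) more tightly but with weaker signalling, so that FLT1 and its soluble form act in part as a trap. Of the 3 receptor kinases, VEGF-B and placental growth factor, the product of *Pgf*, bind FLT1 only. VEGF-C and VEGF-D drive lymphatic growth through FLT4 (VEGFR3). Neuropilins are co-receptors without a kinase domain that hold VEGF ligands and, in other settings, class 3 semaphorins. Fibroblasts are known mainly as a source of the ligands.

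In senescent cells, 6 of the 9 genes were higher and 2 were lower at an adjusted p under 0.05 (edgeR, quasi-likelihood), against 36.2% of all tested genes higher and 34.1% lower. *Flt1*, *Pgf*, *Kdr* and *Vegfc*, all at 8 to 82 counts per control library, had the largest increases, from 12.3-fold to 31.4-fold, and *Flt4* and *Vegfa* rose 2.98-fold and 1.88-fold. Both neuropilins fell, and *Vegfb* was not called. The values of the 2 groups did not overlap in 8 of the 9 genes, as in 75.3% of all tested genes. By the limits in the study's methods (p under 0.05 and a change over 2-fold), 5 were higher and 1 was lower, where 30.1% of all tested genes met them in either direction.

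**Figure D1:**
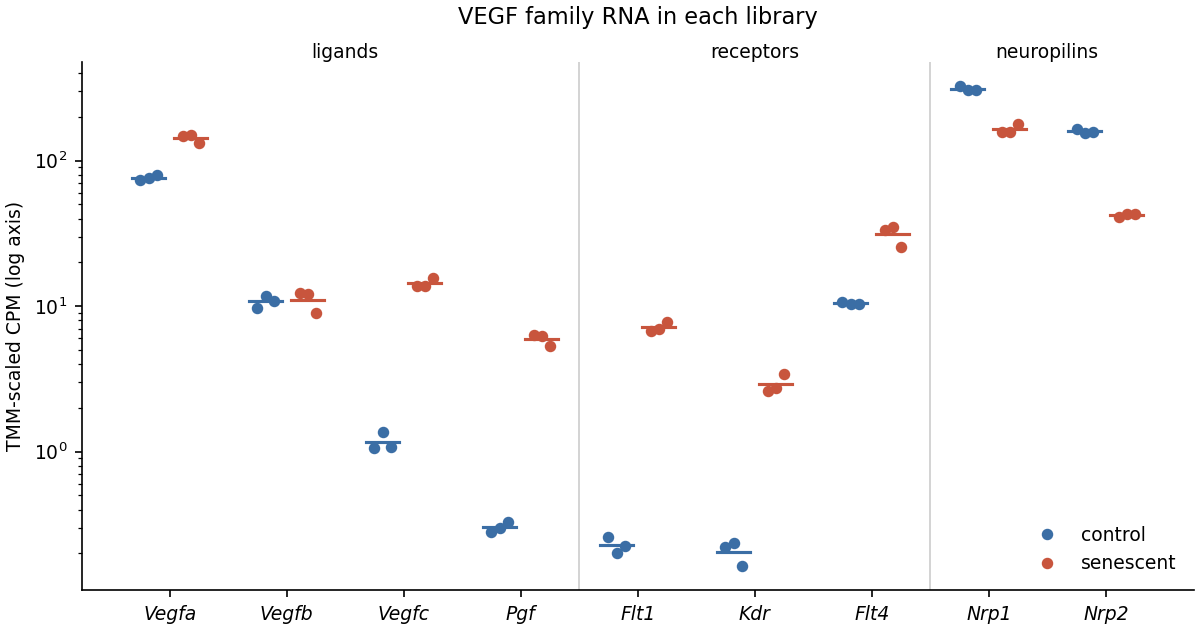
Level of each of the 9 genes in each library, in TMM-scaled counts-per-million (CPM), on a log axis, with 1 point per library and a line at the mean of the 3 control or 3 senescent samples. The groups are apart in every gene except *Vegfb*, and *Nrp1* and *Nrp2* are the genes with senescent samples below control samples.

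Total counts ranged from 50288454 to 82229553 per library, and 3 counts, the limit that a count of 0 allows, correspond to 0.0355 to 0.0613 CPM. This limit covers counting error only. Senescent replicate 3 stood apart from the other senescent libraries. The median squared difference between libraries, relative to that from counting alone, was 24.8 and 33.2 for its pairs and 2.33 for the other senescent pair. Among the control libraries, this measure was 6.04 and 5.17 for the pairs of control replicate 1 and 1.81 for the other pair. All 13 fibroblast markers examined had more than 3 counts in at least 1 library, and their summed level was 20510 to 22820 CPM in control and 7829 to 9297 CPM in senescent cells, with 5 higher and 7 lower without overlap. The collagen genes *Col3a1* and *Col1a2* were among the lower ones, and *Dpt* (3.63 ± 0.179 to 53.5 ± 1.72 CPM) and *Thy1* (107 ± 5.25 to 298 ± 28.1 CPM, SD, n = 3 per group) among the higher. Cartilage markers, which ear tissue can bring along, summed to 5216 to 5716 CPM in control and 361 to 441 CPM in senescent cells, with 8 of 9 lower and 1 higher without overlap. Of all tested genes, 75.3% did not overlap in either direction. The higher genes include *Pi16* (fibroblast) and *Matn1* (cartilage), named after their values were seen, which the filter on low counts removed. Among tested markers, 33.3% of the fibroblast list were called higher and 58.3% lower, and 100% of the cartilage list lower. Over all tested genes these shares were 36.2% and 34.1%. In bulk RNA, fewer cells of a type and less RNA per cell cannot be told apart.

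The genes lie on separate chromosomes apart from a pair on chromosome 5 (*Kdr*, *Flt1*) and a pair on chromosome 8 (*Vegfc*, *Nrp1*). The 250 bases upstream of the RefSeq start sites (GRCm38.p6, the assembly named mm10) were searched on both strands for the E-box CACGTG, its shorter core ACGTG that hypoxia-inducible factors use, the AP-1 site TGANTCA and the GC box GGGCGG. Every CACGTG contains the core ACGTG. Other forms of the hypoxia core, and sequence farther upstream than these windows, were not searched. No E-box and no AP-1 site lay in any of the 11 windows of the 9 genes, where 6.02% and 6.75% of all 32851 promoters hold them. ACGTG was in 1 window, at a second start site inside *Vegfa*, and is in 16.6% of all promoters. GENCODE exons of *Vegfa* itself cover 218 of the 250 bases of that window. Exons of the gene itself also cover all 250 bases of both *Pgf* windows and of the *Flt4* window, so these are partly or wholly transcribed sequence. The GC box, to which SP1-type factors bind, was in 10 of the 11 windows and in all 9 genes, against 32.7% of all promoters. GC content of the upstream windows ran from 59.2% to 76.4% in the 9 genes, where the median promoter has 52.4%. The palindrome TGACGTCA, a cyclic AMP response element searched for only after the sequences had been seen, occurred in *Flt1* alone, 81 bases before the start site, and is in 1.55% of all promoters.

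A few of these windows are shown to let the genes be compared: *Vegfa*, the most abundant of the 4 ligands, *Vegfc* and *Flt1*, which had among the largest increases, and *Vegfb*, which was not called. They are chr17:46032378-46032627 (minus strand), chr8:54077282-54077531 (plus), chr5:147726012-147726261 (minus) and chr19:6987652-6987901 (minus), written 5′ to 3′ toward the start site. Capitals mark GC boxes on either strand and, in *Flt1*, the palindrome as well.
Vegfa: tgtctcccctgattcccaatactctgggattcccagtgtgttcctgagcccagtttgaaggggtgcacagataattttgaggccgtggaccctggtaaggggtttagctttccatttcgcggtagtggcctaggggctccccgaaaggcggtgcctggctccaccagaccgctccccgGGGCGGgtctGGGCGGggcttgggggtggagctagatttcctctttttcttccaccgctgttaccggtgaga
Vegfc: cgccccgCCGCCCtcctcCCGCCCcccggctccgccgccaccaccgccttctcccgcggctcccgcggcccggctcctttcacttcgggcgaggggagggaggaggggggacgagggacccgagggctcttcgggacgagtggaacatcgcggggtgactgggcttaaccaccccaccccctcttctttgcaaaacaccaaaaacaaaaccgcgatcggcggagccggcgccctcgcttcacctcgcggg
Flt1: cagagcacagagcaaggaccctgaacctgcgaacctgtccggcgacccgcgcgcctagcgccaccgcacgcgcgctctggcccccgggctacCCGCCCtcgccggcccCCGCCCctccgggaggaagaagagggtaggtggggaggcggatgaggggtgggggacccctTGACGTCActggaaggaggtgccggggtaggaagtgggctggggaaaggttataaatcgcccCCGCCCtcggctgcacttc
Vegfb: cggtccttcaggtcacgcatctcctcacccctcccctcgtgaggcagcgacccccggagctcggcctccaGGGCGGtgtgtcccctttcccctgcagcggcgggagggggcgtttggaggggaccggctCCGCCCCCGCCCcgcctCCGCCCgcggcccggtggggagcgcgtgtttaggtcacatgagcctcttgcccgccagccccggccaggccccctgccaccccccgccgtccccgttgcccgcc
*Vegfb*, with no call between the groups, has 4 GC boxes, more than *Vegfa* (2), *Vegfc* (2) or *Flt1* (3). A match is only a match of letters, and the binding of any factor was not measured here.

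Among the ligands, *Vegfa* (ENSMUSG00000023951, chromosome 17 of mm10 from 46016993 to 46032377) was at 73.3, 76.3 and 79.4 CPM in control replicates 1, 2 and 3 and at 148, 151 and 132 CPM in senescent replicates 1, 2 and 3. Every senescent sample was above every control sample. The mean went from 76.3 ± 3.04 to 143 ± 10.3 CPM (SD, n = 3), a log2 fold change of 0.91 (standard error 0.07). *Vegfa* therefore falls short of the 2-fold limit of the study's methods, although its counts, from 3656 to 11944 per library, are among the deepest of the family.

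*Vegfc* (ENSMUSG00000031520, chromosome 8 from 54077532 to 54186454), the lymphatic growth factor, was at 1.06, 1.37 and 1.08 CPM in the control samples and 13.7, 13.8 and 15.7 CPM in the senescent samples. These rest on 53, 82 and 53 counts against 758, 1091 and 1326 counts. The groups were far apart, by 3.61 on the log2 scale (standard error 0.13). *Pgf* (ENSMUSG00000004791, chromosome 12 from 85166639 to 85177296) was at 0.281, 0.301 and 0.327 CPM in control cells, from 14 to 18 counts, and at 6.30, 6.28 and 5.33 CPM in senescent cells, from 349 to 498 counts. It was thus barely detected in control cells and readily counted in senescent cells, 19.7-fold higher on the CPM scale, with a fitted log2 fold change of 4.29 (standard error 0.15).

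*Vegfb* (ENSMUSG00000024962, chromosome 19 from 6982473 to 6987651) is best known from heart and muscle, and its product binds only FLT1 among the 3 receptor kinases. *Vegfb* was at 9.70, 11.7 and 10.9 CPM in the control samples and 12.3, 12.1 and 8.92 CPM in the senescent samples. Senescent replicates 1 and 2 were above all control samples and senescent replicate 3 was below all of them. The log2 fold change was 0.04 (standard error 0.14), with a 95% interval from -0.28 to 0.37, so changes within that interval were not excluded. Without senescent replicate 3 it was 0.18 (standard error 0.08), which just missed the limit of 0.05 on the adjusted p. Without control replicate 1, senescent replicate 1 or senescent replicate 2 it was -0.03, -0.03 and -0.02.

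The remaining ligand gene of the family, *Vegfd* (listed under its older name *Figf*, ENSMUSG00000031380, chromosome X from 164373378 to 164402650), is not among the 9 genes but shares FLT4 with VEGF-C. It was at 75.3, 73.5 and 73.7 CPM in the control samples and 45.9, 46.5 and 52.4 CPM in the senescent samples. It fell without overlap between the groups, with a log2 fold change of -0.62 (standard error 0.07, edgeR adjusted p = 8.53e-05). The FLT4 ligands *Vegfc* and *Vegfd* thus moved in opposite directions.

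Of the receptors, *Flt1* (ENSMUSG00000029648, chromosome 5 from 147561604 to 147726011) was covered by 13, 12 and 11 reads in control cells and by 377, 555 and 655 reads in senescent cells. In CPM these are 0.261, 0.201 and 0.225 against 6.80, 7.0 and 7.76. This was the largest increase of the family, with a log2 fold change of 4.97 (standard error 0.15), which ranked 427 among the increases of 17589 tested genes. Counts per gene do not separate the full-length form of *Flt1* from its soluble form.

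*Kdr* (ENSMUSG00000062960, chromosome 5 from 75932827 to 75978458) was covered by 11, 14 and 8 reads in control cells and by 145, 216 and 289 reads in senescent cells, or 0.221, 0.234 and 0.163 CPM against 2.62, 2.73 and 3.42 CPM. It was 14.2-fold higher in senescent cells, with a log2 fold change of 3.81 (standard error 0.21), the widest error of the family. *Flt4* (ENSMUSG00000020357, chromosome 11 from 49609263 to 49652739) was the one receptor with an ample level in control cells, at 10.6, 10.4 and 10.4 CPM. It was at 33.3, 34.9 and 25.4 CPM in senescent cells, where replicate 3 was the lowest, and its log2 fold change of 1.57 (standard error 0.12) was 1.71 without that replicate.

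Senescent replicate 3 did not shift the family one way. It was the lowest senescent sample in *Vegfa*, *Vegfb*, *Pgf* and *Flt4* and the highest in *Vegfc*, *Flt1*, *Kdr*, *Nrp1* and *Nrp2*. Leaving it out left 6 genes called higher and 2 lower.

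The neuropilins had the opposite direction. *Nrp1* (ENSMUSG00000025810, chromosome 8 from 128359073 to 128505462), the co-receptor that also serves semaphorin 3A, was at 327, 304 and 308 CPM in the control samples and 157, 157 and 179 CPM in the senescent samples, with a log2 fold change of -0.93 (standard error 0.07). *Nrp2* (ENSMUSG00000025969, chromosome 1 from 62703285 to 62818695), the partner of FLT4 on lymphatic vessels, was at 165, 155 and 157 CPM and then at 41.2, 42.7 and 42.9 CPM. It was 3.76-fold lower in senescent cells, with a log2 fold change of -1.91 (standard error 0.06). Neither gene overlapped between the groups, and the 95% intervals of their log2 fold changes, -1.09 to -0.77 for *Nrp1* and -2.04 to -1.78 for *Nrp2*, did not meet. The ratio of *Nrp1* to *Nrp2* counts within a library, which scaling cannot change, was 1.98, 1.97 and 1.97 in the control libraries and 3.81, 3.68 and 4.17 in the senescent libraries.

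**Figure D2:**
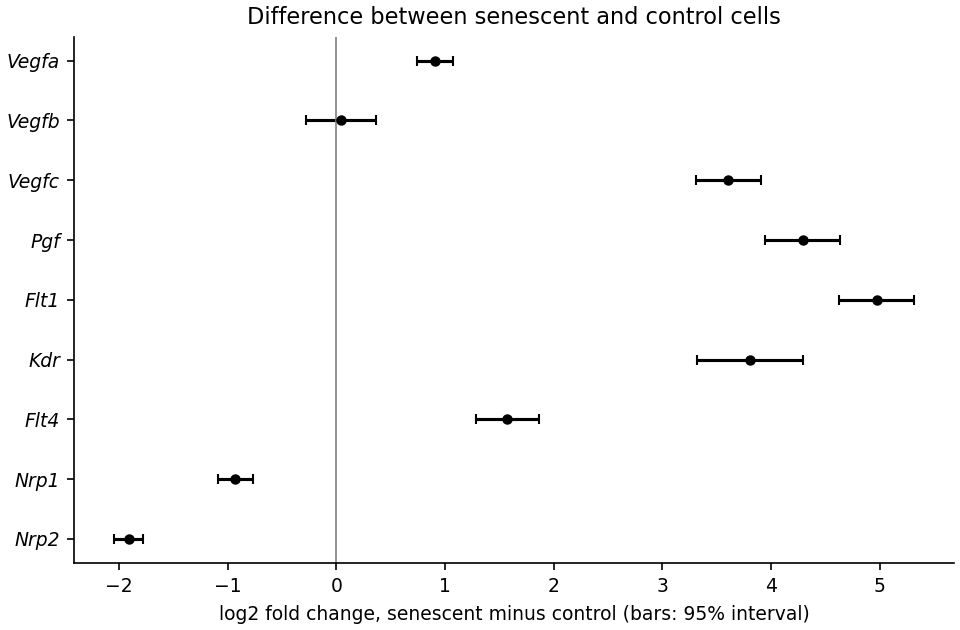
Log2 fold change of each gene, senescent minus control, with its 95% interval from edgeR's quasi-likelihood fit. *Flt1*, *Pgf*, *Kdr* and *Vegfc* lie above 3, *Vegfb* spans 0, and *Nrp1* and *Nrp2* lie at -0.93 and -1.91.

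Levels of different genes were compared as CPM per kb of the gene length in the count table. In control cells the order was *Nrp1* (53.0 ± 2.05), *Vegfa* (17.8 ± 0.707), *Nrp2* (13.4 ± 0.484), *Vegfb* (6.71 ± 0.617), *Flt4* (1.27 ± 0.0150), *Vegfc* (0.623 ± 0.0921), *Pgf* (0.192 ± 0.0147), *Kdr* (0.0283 ± 0.00516) and *Flt1* (0.0197 ± 0.00260 CPM per kb, SD, n = 3). All neighbours in this order were apart except *Kdr* and *Flt1*, whose ranges touched. *Nrp1* was above 94.15% of the tested genes in level per kb, and *Flt1* above 4.38%.

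In senescent cells *Vegfa* led, at 33.4 ± 2.40 CPM per kb, ahead of *Nrp1* at 27.8 ± 2.13 CPM per kb. The lowest *Vegfa* sample (30.7) was just above the highest *Nrp1* sample (30.3). *Vegfc* (7.65 ± 0.611) and *Vegfb* (6.92 ± 1.18) came next and overlapped each other. *Flt4* (3.79 ± 0.622), *Pgf* (3.77 ± 0.350) and *Nrp2* (3.57 ± 0.0785 CPM per kb) formed a group of 3 genes whose ranges overlapped. With exon lengths from GENCODE *Pgf* was at 1.84 to 2.17 CPM per kb and lay below every *Flt4* and *Nrp2* sample. *Flt1*, at 0.621 ± 0.0436, and *Kdr*, at 0.401 ± 0.0602 CPM per kb, were again last and did not overlap. After their increases they stood above 23.1% and 18.3% of the tested genes, so both remained scarce RNAs.

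The makeup of each class differed accordingly. With *Vegfd* included, the 5 ligand genes summed to 55.1 to 56.7 CPM per kb in control and 69.7 to 73.3 CPM per kb in senescent cells. *Vegfd* held 56.7%, 54.0% and 54.0% of this in the control libraries and 26.3%, 26.4% and 31.2% in the senescent libraries, while *Vegfa* went from 31.0%, 31.5% and 32.6% to 47.5%, 47.9% and 44.0%. The most abundant ligand RNA was therefore *Vegfd* in every control library and *Vegfa* in every senescent library. Among the receptors, *Flt4* held 96.4% ± 0.378 of the level per kb in control cells and 78.4% ± 4.71 in senescent cells (SD, n = 3 per group). *Flt1* and *Kdr* made up the rest, and the ratio of *Flt1* to *Kdr* counts was 1.18, 0.857 and 1.38 in the control libraries and 2.60, 2.57 and 2.27 in the senescent libraries. The neuropilins together were 50.2 ± 1.26 times as abundant per kb as the 3 receptors in control cells and 6.60 ± 1.23 times in senescent cells.

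**Figure D3:**
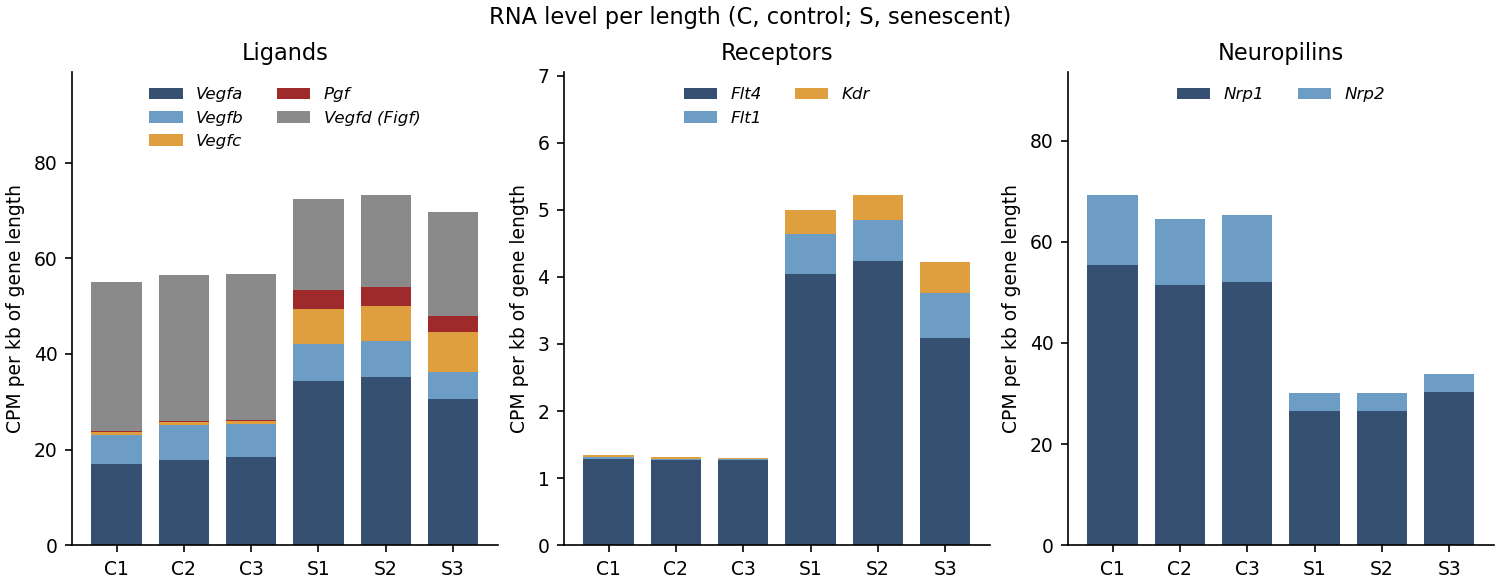
CPM per kb of gene length stacked by gene in each library, for the ligands (*Vegfd* added), the receptors and the neuropilins, with C1 to C3 for control and S1 to S3 for senescent replicates. Ligand and receptor totals are higher in every senescent library, and neuropilin totals are lower, at 30.1 to 33.9 against 64.6 to 69.3 CPM per kb.

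Because *Kdr*, *Flt1* and *Flt4* are receptors of endothelium, markers of endothelial and other cells were counted beside them. Of 16 endothelial markers, 10 were higher and 3 lower in senescent cells without overlap, and *Tie1* did not exceed 3 counts in any library. Of all tested genes, 75.3% did not overlap in either direction, but only 11 of the 16 passed the filter on low counts. Of these 11, 8 were called higher and 3 lower (72.7% and 27.3%, against 36.2% and 34.1% of all tested genes). All 16 summed to 95.3 to 101 CPM in control cells and to 34.2 to 45.1 CPM in senescent cells. Most of this was *Erg* in control cells (80.4 ± 1.99 CPM, against 7.47 ± 0.165 CPM in senescent cells). Without *Erg*, a step added after the data were seen, the sum was 16.6 to 19.3 CPM in control and 26.5 to 37.8 CPM in senescent cells. The genes of this list with the smallest p among the increases were *Esam*, an adhesion molecule (0.328 ± 0.110 to 1.98 ± 0.154 CPM), *Pecam1*, which encodes CD31 (0.471 ± 0.0375 to 1.29 ± 0.117 CPM), and *Vwf*, the gene of von Willebrand factor (0.108 ± 0.0129 to 0.559 ± 0.167 CPM, SD, n = 3 per group). *Egfl7*, a factor secreted by endothelium, and the transcription factor *Sox18* fell along with *Erg*, from 2.80 ± 0.595 to 1.41 ± 0.345 CPM and from 1.01 ± 0.130 to 0.480 ± 0.176 CPM. *Cdh5* (VE-cadherin) and *Cldn5*, of endothelial tight junctions, were picked after their values were seen. *Cdh5* had 3, 4 and 9 counts in control and 30, 36 and 41 counts in senescent libraries, and *Cldn5* had 0 counts in the control libraries and 6, 10 and 12 in the senescent libraries. The part of endothelial RNA in the receptor values was not tested.

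Lymphatic endothelial markers, which bear on *Flt4* and *Vegfc*, summed to 4.55 to 5.02 CPM in control and 9.44 to 10.5 CPM in senescent cells. Of these 6 genes, 4 were higher without overlap and *Ccl21a* was at 0 in all libraries. The 4 include *Mmrn1*, named after its values were seen, at 0 counts in control and 2, 2 and 8 in senescent libraries. Of all tested genes, 75.3% did not overlap in either direction. This share bears on the lists below as well, which also count genes that the filter on low counts removed. *Lyve1* rose from 0.451 ± 0.0553 to 2.31 ± 0.237 CPM and *Prox1* from 0.608 ± 0.164 to 1.87 ± 0.0940 CPM (SD, n = 3 per group). Macrophage markers, relevant because monocytes carry FLT1, summed to 8.78 to 9.32 CPM in control and 19.1 to 22.1 CPM in senescent cells. Without overlap, 7 of 9 were higher and 0 lower, counting genes that the filter on low counts removed. *Tyrobp* had no more than 3 counts in any library. Of the 7 tested macrophage markers, 85.7% were called higher and 0% lower, against 36.2% and 34.1% of all tested genes. Pericyte and smooth muscle markers summed to 1540 to 1658 CPM in control and 1274 to 1617 CPM in senescent cells, with 7 of 11 higher and 1 lower without overlap, among them *Rgs5* at 0.708 ± 0.159 and 11.4 ± 0.555 CPM, and *Higd1b* at 0 in all libraries. *Acta2*, named after its values were seen, made up most of the pericyte and smooth muscle sum, with means of 1171 and 1172 CPM. Keratinocyte markers summed to 16.5 to 17.2 CPM in control and 16.5 to 17.4 CPM in senescent cells (2 of 9 higher, 1 lower without overlap). Within this level sum, *Trp63* fell from 13.1 to 4.17 CPM, while *Dsp* rose from 0.110 to 7.09 CPM and *Cdh1* from 0.477 to 1.91 CPM. Schwann cell and melanocyte markers summed to 72.2 to 76.0 and 49.99 to 53.2 CPM (3 of 9 higher, 4 lower without overlap). The part of these cell types in the results was not tested.

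Of 50 tested signalling genes downstream of the receptors, 16 were higher and 14 lower (32.0% and 28.0%, against 36.2% and 34.1% of all tested genes), with a median log2 fold change of 0.12, where the median over all tested genes was 0.0085. These shares lie near or below the background. *Rcan1*, a calcineurin regulator induced by the NFAT branch of VEGF signalling, rose from 16.4 ± 0.912 to 110.2 ± 4.09 CPM (SD, n = 3 per group, edgeR adjusted p = 3.30e-08). *Mapkapk3* and *Ptk2b*, kinases of the p38 and focal adhesion branches, had log2 fold changes of 1.36 and 0.99. *Plcg1*, the phospholipase that KDR activates, fell from 121 ± 1.38 to 86.2 ± 2.97 CPM, and *Mapk3* (ERK1) and the adaptor *Gab1* had log2 fold changes of -0.86 and -0.82.

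Of 18 tested neuropilin partners, 7 were higher and 6 lower (38.9% and 33.3%), close to the shares over all tested genes, around a median log2 fold change of -0.08. The members with the smallest p among the increases were all class 3 semaphorins, secreted ligands of the neuropilins. *Sema3a* rose from 14.6 ± 0.632 to 53.1 ± 5.83 CPM, *Sema3c* from 113 ± 5.64 to 272 ± 32.8 CPM and *Sema3d* from 5.45 ± 0.136 to 15.4 ± 2.18 CPM (SD, n = 3 per group). The largest of their 3 edgeR adjusted p-values was 1.33e-05, while *Nrp1* and *Nrp2* were lower in the same samples. The class did not move as one, as further members picked after their values were seen show. *Sema3b* and *Sema3e* rose too, but *Sema3f* fell from 54.1 ± 3.54 to 19.1 ± 3.61 CPM, and *Sema3g* was not called. *Plxnb1*, a plexin, and the adhesion molecules *L1cam* and *Chl1*, which can associate with neuropilins, fell, with log2 fold changes of -2.89, -2.89 and -1.69.

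*Vegfa* is a classical target of hypoxia-inducible factors (HIF), so genes of oxygen sensing and other HIF targets were examined. Here 9 of 32 tested genes were higher and 19 lower (28.1% and 59.4%, against 36.2% and 34.1% of all tested genes), with a median log2 fold change of -0.33. *Ddit4*, *Pdk1* and *P4ha2*, a stress regulator, a brake on pyruvate oxidation and a collagen hydroxylase, fell by 1.5, 1.34 and 1.33 on the log2 scale. *Bhlhe40* and *Adm* rose by 1.11 and 1.02, and the latter encodes the vasodilator adrenomedullin. *Hif1a* itself, named after its values were seen, had means of 171 and 195 CPM in control and senescent cells and was not called (edgeR adjusted p = 0.187). The list mixes genes of oxygen sensing with HIF targets, so its shares are no measure of HIF activity. The part of HIF in the values of *Vegfa* was not tested.

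Genes that bind, process or antagonize VEGF in the matrix were higher in 21 of 36 tested cases and lower in 11. These are 58.3% and 30.6%, against 36.2% and 34.1% of all tested genes. The median log2 fold change was 0.58, where that over all tested genes was 0.0085. The list pools genes of unlike roles, so a higher share has no single meaning for VEGF. *Mmp3*, a metalloproteinase that can free matrix-bound VEGF-A, rose from 9.89 ± 0.261 to 451 ± 46.1 CPM, *Dcn* (decorin) from 56.6 ± 0.377 to 643 ± 65.2 CPM and *Thbs2*, an inhibitor of angiogenesis, from 45.1 ± 1.58 to 182 ± 1.54 CPM (SD, n = 3 per group). *Sparc*, whose product binds VEGF-A, *Vash2* and *Mmp14* fell, with log2 fold changes of -1.10, -1.76 and -0.89. *Ccbe1*, needed together with ADAMTS3 to activate VEGF-C, was picked after its values were seen and rose from 17.4 to 45.9 CPM, whereas *Adamts3* had means of 1.24 and 0.896 CPM and was not called.

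**Figure D4:**
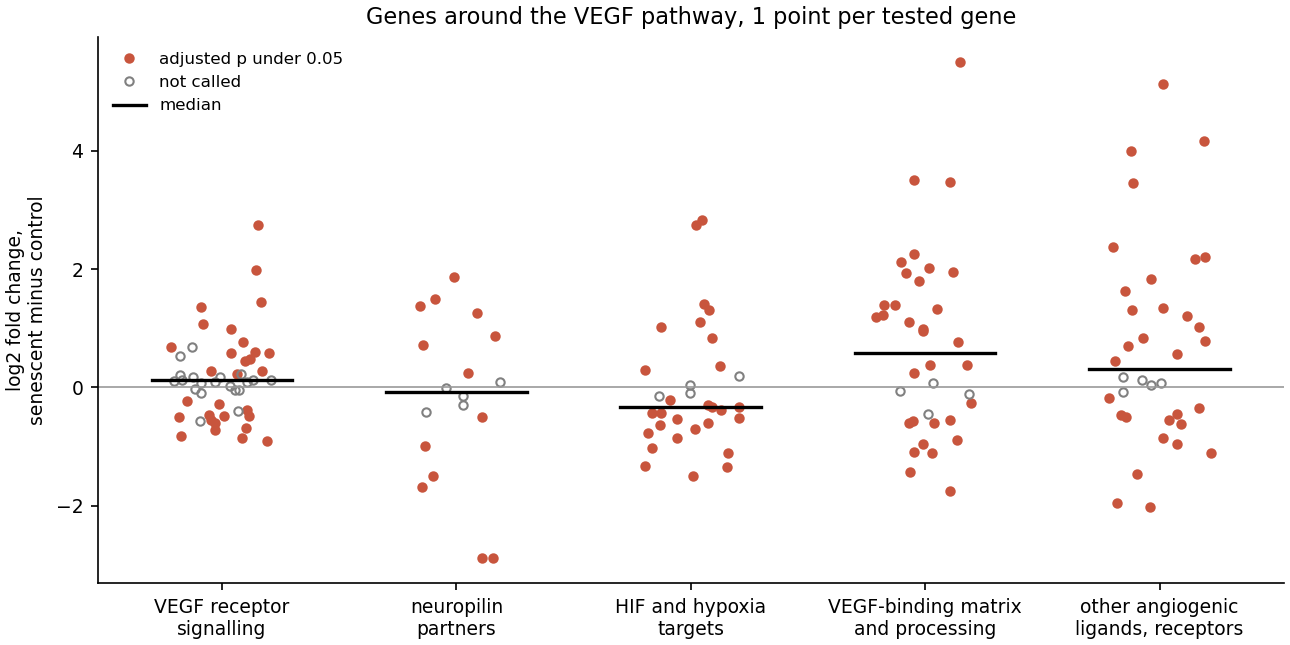
Log2 fold change, senescent minus control, of every tested gene in 5 lists around the VEGF pathway, with 1 point per gene, filled where the adjusted p was under 0.05, and a line at the median. The hypoxia list has its median below 0 (-0.33) and the matrix and processing list above 0 (0.58).

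For each of these genes except *Pgf*, the tested gene with the most similar values was sought by Pearson's r of log2 CPM over the 6 libraries, among 12957 others with a mean of at least 100 counts. These were *Cfap43* for *Vegfa*, *Smg9* for *Vegfb*, *Ccl8* for *Vegfc*, *Bdnf* for *Flt1*, *Sema3a* for *Kdr*, *Pip4k2b* for *Flt4*, *Sfxn1* for *Nrp1* and *Traip* for *Nrp2*, with r from 0.99938 (*Smg9*) to 0.99998 (*Traip*). With 2 groups of 3 libraries, r mostly reflects the difference between the groups. For *Kdr*, 1233 genes had an r over 0.99, and for *Vegfb*, which was not called, 3 did.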

How the data were processed

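RNA-seq counts of 3 control and 3 senescent MAF samples were analysed. The authors mapped paired reads of stranded poly(A) libraries (200 ng of RNA each) to mm10 with STAR in their MAPRSeq pipeline, used Subread to assign reads to genes, and deposited raw counts per gene without normalization. The strand setting and the treatment of multi-mapping reads are not given in the sources used here, and of other annotated genes only a microRNA gene shares exon bases (80) with a member, *Nrp1*. The Length column (other unit, bases per gene) was deposited in the same table.

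From the counts, genes were kept by filterByExpr, scaled by TMM and tested in R 4.3.3 with the quasi-likelihood method of edgeR 4.0.16 (robust, two-sided, group as the only term), with Benjamini-Hochberg adjustment over 17589 genes. Standard errors are the log2 fold change divided by the square root of F. Levels are TMM-scaled CPM, per kb of the Length column where genes are compared. Reads carried no molecular identifiers. Union exon lengths came from GENCODE vM21, and promoters from RefSeq (GRCm38.p6), matched by symbol for all 9 members. DESeq2 1.42.0 and the other settings below served as alternatives. The test was checked on simulated data with known answers.

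The members and lists were chosen with earlier results of these data known, and the lists were written from general knowledge. The text names all 9 members and *Vegfd*, and from each list up to 3 genes per direction with the smallest p, except where a gene is said to have been picked later. A gene that this rule selects is not reported here.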

Additional observations from a re-analysis of the deposited data

How the results depend on the processing

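All 8 members called in the report kept their direction and an adjusted p under 0.05 (edgeR's quasi-likelihood test or DESeq2) with DESeq2, with RLE factors, with library size as the only scaling, with all genes of at least 1 count, with at least 10 counts in every library, and without each library in turn. The exception is *Kdr*, which the filter at 10 counts removes, so that 5 members were called higher there. Without each library in turn, *Vegfb* had log2 fold changes between -0.031 and 0.18. With a replicate block the family again had 6 genes higher and 2 lower, and all lists stayed within 1.5 times their counts. Same-numbered samples did not all deviate together (correlations of -0.56, 0.44 and -0.40), so the block was not taken as a pairing. Control replicate 1 deviated with senescent replicate 3 (0.67), and control replicates 2 and 3 with senescent replicates 1 and 2 (0.32 to 0.44). The source of this likeness was not tested. With GENCODE exon lengths, levels per kb in control and senescent cells became 0.479 and 5.87 for *Vegfc*, 0.104 and 2.06 for *Pgf*, 0.0169 and 0.532 for *Flt1*, 0.0228 and 0.324 for *Kdr*, and 32.0 and 16.8 for *Nrp1*, since these genes are longer there. *Vegfb* then preceded *Vegfc*, and *Nrp2* preceded *Pgf*, in senescent cells. The mean share of *Vegfa* among the 4 ligands went from 70.3% in control to 64.5% in senescent cells with the deposited lengths and from 71.0% to 69.2% with GENCODE lengths. The *Flt4* share in control cells became 97.0%, and *Nrp1* to *Nrp2* per kb 2.38 in control and 4.71 in senescent cells, in place of 3.95 and 7.79. In *Kdr*, *Flt1* and *Pgf*, 8 to 18 counts per control library limit the precision of the fold change.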

Other observations

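Of 36 tested ligands and receptors of angiogenesis other than the 9 genes of the report, 18 were higher and 13 lower in senescent cells, *Vegfd* among the latter (50% and 36.1%, against 36.2% and 34.1% of all tested genes), with a median log2 fold change of 0.31. *Fgf2*, an endothelial mitogen, rose from 12.8 ± 0.915 to 141 ± 7.76 CPM, and *Slit2*, a guidance ligand of ROBO receptors, from 55.9 ± 3.48 to 199.9 ± 8.98 CPM (SD, n = 3 per group). *Cxcr4*, a chemokine receptor, had 0.0697 ± 0.0311 CPM in control cells, near the detection limit, and 2.5 ± 0.0635 CPM in senescent cells. *Angpt1*, which steadies vessels through the TEK receptor, fell from 27.6 ± 1.85 to 7.10 ± 1.22 CPM. *Fgfr2* and *Apln*, the apelin gene, had log2 fold changes of -1.46 and -0.85. The 6 other than *Vegfd* were picked for the smallest p among the called genes of this list. Their edgeR adjusted p-values, from 2.63e-08 to 1.10e-05, are therefore low by selection.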
